A study of Mus musculus with 6 samples.

Results

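The genes described here carry a cell through mitosis. They are 46 named genes that encode mitotic cyclins and kinases, spindle checkpoint proteins, kinetochore and condensin subunits, mitotic kinesins and cytokinesis factors. They were taken by gene symbol from the deposited expression table, which lists 18518 symbols, and all 46 were found in it. The libraries came from E14Tg2A cells, an established mouse embryonic stem cell line. Of the 6 libraries, 3 were BACH1-KO, from cells in which Bach1 had been targeted with CRISPR/Cas9. For these cells, guides in the plasmid LentiCRISPR V2 were transiently transfected, transfected cells were selected with puromycin, and clones were sorted as single cells. The labels do not say how many clones the 3 libraries represent, so they may stand for 1 clone. They were compared with 3 libraries of WT cells. Cells of both genotypes grew in serum medium for 2 days, and the medium contained leukemia inhibitory factor (LIF), the cytokine that maintains mouse embryonic stem cells, at 200 units/ml. BACH1 is a transcription factor of the CNC family that represses genes such as the one for heme oxygenase, and the study asked how its loss alters the pluripotency and differentiation of these cells.

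Entry into mitosis is driven by CDK1 bound to A- and B-type cyclins, and Polo and Aurora kinases build the spindle and correct faulty attachments. Kinetochores, assembled on centromeres, bind spindle microtubules, and the spindle checkpoint holds back the anaphase-promoting complex (APC/C) until every chromosome is attached. The APC/C then marks cyclin B and securin for destruction, separase cuts cohesin, and the cell divides. Embryonic stem cells cycle fast with short gap phases and transcribe these genes at high levels. Most of them belong to one program, transcribed in G2 and M phase through MuvB complexes with B-MYB and FOXM1, which act at CHR elements and CCAAT boxes close to the start of transcription.

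The values are FPKM, fragments scaled to transcript length and to the mapped fragments of the library, computed by the authors. The number of reads per library was unknown, and the steps between the lowest values put relative depths within 1.18 times of the shallowest library. Bach1, the targeted gene, had 10.5, 10.4 and 10.4 FPKM in the BACH1-KO libraries, against 7.97, 8.39 and 8.47 FPKM in the WT libraries (log2 fold change 0.30, adjusted p = 5.15e-04, limma). The transcript level of a gene disrupted by small insertions or deletions does not show whether the protein was lost, so it does not check the labels. Of 8 embryonic stem cell markers, 1 rose and 7 fell, with log2 fold changes from -2.22 to 0.07. Of all 12187 genes tested, 77.0% passed at an adjusted p under 0.05 (limma), 37.3% as higher and 39.7% as lower. Pou5f1, which encodes OCT4, had mean levels of 1115 FPKM in BACH1-KO cells and 1377 FPKM in WT cells. Transcripts listed here as markers of other cell types also differed: 21 hepatocyte transcripts summed to between 1160 and 1210 FPKM in BACH1-KO libraries, against 11.4 to 20.5 FPKM in WT libraries, where Apoh was listed at 0 throughout. Serpina3k, one of them, had 94.9, 94.5 and 99.3 FPKM in BACH1-KO libraries, against 0, 0.129 and 0.180 FPKM in WT libraries. The 11 fibroblast feeder markers summed to between 68.9 and 71.6 FPKM in BACH1-KO libraries, against 203 to 223 FPKM in WT libraries. Most of that sum was Vim, with 54.0, 54.2 and 56.5 FPKM in BACH1-KO libraries, against 176, 189 and 194 FPKM in WT libraries. Without Vim the sums were 14.7 to 15.1 FPKM in BACH1-KO libraries, against 27.2 to 28.3 FPKM in WT libraries. Most of the rest was Thy1, with means of 10.2 FPKM in BACH1-KO cells and 18.8 FPKM in WT cells. The collagen gene Col1a1 averaged only 0.264 FPKM in BACH1-KO cells and 0.649 FPKM in WT cells. Of the 11 markers 5 had a higher mean in BACH1-KO cells, each at 0.764 FPKM or less and too low to be tested, among them Col3a1 and Lum, which were listed at 0 in every WT library. All 21 hepatocyte transcripts passed the test as higher, and the 4 feeder markers abundant enough to be tested were lower. The part of these differences in the results for mitotic genes was not tested. In bulk RNA, fewer cells of a type and less RNA per cell cannot be told apart, and here that also holds for fewer cells in mitosis and less of a transcript per mitotic cell.

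The promoters show what most of the genes have in common, and 6 are printed for 3 genes that fell, 2 that rose and 1 that did not pass the test. A window of 250 bases before to 50 bases after the transcription start was available from RefSeq (GRCm38.p6, which is mm10) for 37 of the 46 genes. Each line gives 80 bases before to 20 bases after the start, 5′ to 3′ on the gene's strand. Capitals mark the CHR element, searched as TTTGAA or TTCGAA, and the CCAAT box, both on either strand, so that TTCAAA and ATTGG are their reverse complements.
Cenpf (fell, chr1:189688067-189688166, minus strand): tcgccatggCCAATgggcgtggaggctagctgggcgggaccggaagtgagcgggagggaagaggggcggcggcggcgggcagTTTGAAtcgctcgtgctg
Kif23 (fell, chr9:61946780-61946879, minus strand): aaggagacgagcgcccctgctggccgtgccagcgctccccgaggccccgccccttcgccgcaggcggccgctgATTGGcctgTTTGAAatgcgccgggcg
Top2a (fell, chr11:99024170-99024269, minus strand): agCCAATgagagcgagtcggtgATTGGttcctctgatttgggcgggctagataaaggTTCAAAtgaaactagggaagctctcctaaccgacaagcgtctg
Cdk1 (rose, chr10:69352893-69352992, minus strand): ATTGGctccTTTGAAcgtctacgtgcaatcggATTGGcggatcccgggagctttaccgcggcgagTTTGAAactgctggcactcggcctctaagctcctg
Ube2c (rose, chr2:164769849-164769948, plus strand): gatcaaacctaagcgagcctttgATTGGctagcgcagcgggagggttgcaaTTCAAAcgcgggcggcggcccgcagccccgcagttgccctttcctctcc
Cdc20 (did not pass the test, chr4:118437324-118437423, minus strand): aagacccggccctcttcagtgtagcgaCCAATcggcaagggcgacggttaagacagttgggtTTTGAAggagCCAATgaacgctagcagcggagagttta
The CHR element of Cenpf and that of Kif23 both began 3 bases past the start, and that of Kif23 lay just downstream of a reversed CCAAT box. Top2a had 4 CHR matches and 6 CCAAT matches in the whole window. Cdk1, whose transcript rose slightly, had the same elements, with CHR matches beginning 71 and 15 bases before the start. Ube2c and Cdc20 each had a single CHR match, 29 and 18 bases before the start.

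A CHR match was found for 29 of the 37 genes (78.4%). That compared with 21.7% of all 27025 genes with a window and 15.8% of the 9192 that were also tested for expression. CCAAT was found for 28 genes (75.7%), against 41.1% of all genes, and 25 genes had both (67.6%), against 9.65% of all genes. In 1 place a CHR match overlapped a CCAAT match. The 37 genes had 39 windows, and matches were counted in each. Those of Bub3 and Prc1 recur at a constant shift, so the same sites were counted from more than 1 start. The 41 CHR matches had a median first base 15 bases before the start, and 29 of them began within the stretch from 50 bases before the start to 50 after it. The 63 CCAAT matches lay further upstream, with a median of 74 bases before the start. Of the 29 genes with a CHR match 6 rose, 19 fell and 4 did not pass the test, and of the 8 without one 2 rose, 3 fell and 3 did not pass. Of all 12187 genes tested, 77.0% passed, 37.3% as higher and 39.7% as lower. Both elements occurred beside transcripts that rose and transcripts that fell. With calls this common, that would hold for most elements found in many genes. Across the tested genes, those with a CHR match had a median log2 fold change of 0.02 (n = 1450), and those without had -0.01. Of the E2F site (TTTCGCGC, TTTGGCGC or TTTCCCGC, both strands) 4 genes had a match, Cdk1, Cdc25a, Ncapd2 and Ncapg (10.8%). That compared with 2.12% of all genes and 4.28% of the 9192 also tested for expression. The letters TGACTCAGC, a form of the element bound by BACH and MAF proteins, were found for none of the 37 genes and for 0.503% of all genes. The STAT motif TTCNNNGAA was found for 1 gene, Ncaph (2.70%), against 9.55% of all genes. These matches describe letters in a window and do not show binding.

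**Figure D1:**
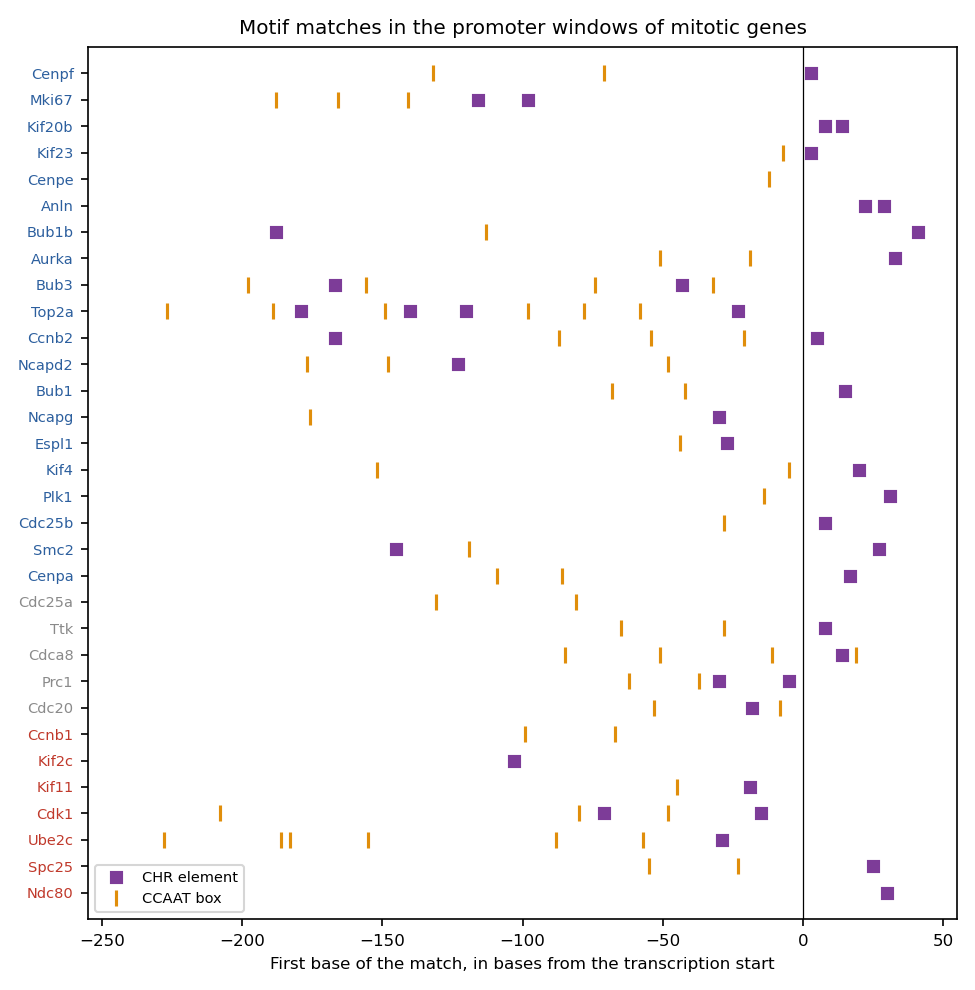
First base of each CHR match (squares) and CCAAT match (ticks), in bases from the transcription start. The 32 mitotic genes with at least 1 match are shown. Gene names are coloured by whether the transcript was higher (red), lower (blue) or not past the threshold (grey) in BACH1-KO cells. CHR matches crowd around the start in genes with names of all 3 colours. Matches of Bub3 and Prc1 are drawn from more than 1 start.

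Most mitotic transcripts differed between the genotypes, and more of them fell than rose. By limma on log2(FPKM + 1), 10 of the 46 were higher in BACH1-KO cells and 27 were lower, at an adjusted p under 0.05, while 9 did not pass. With quantile normalization 15 were higher and 26 lower. These counts stand against a wide background, since 77.0% of the 12187 genes tested passed, 37.3% as higher and 39.7% as lower. Among the mitotic genes 21.7% were higher and 58.7% were lower. Their median log2 fold change was -0.27, against -0.01 over all genes tested. The libraries of the genotypes did not overlap for 39 of the 46, and for 79.3% of the 12187. When the test asked for a change beyond 1.5-fold, 2 were higher (Ndc80 and Spc25) and 9 were lower (Pttg1, Cenpf, Mki67, Kif20b, Kif23, Cenpe, Anln, Aurkb and Bub1b), where 10.9% of all genes were higher and 8.16% lower. No mitotic gene passed with a log2 fold change of 1 or more, and 6 passed with one of -1 or less. Of all 12187 genes, 956 passed with a value of 1 or more and 487 with one of -1 or less. Some sample titles share their last digits, both between the genotypes and within WT. Not every title has a counterpart in the other genotype. What those digits mark is not said, nor whether the 3 libraries of a genotype came from separate cultures, so p-values reflect library-to-library spread alone, and that spread may be technical.

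**Figure D2:**
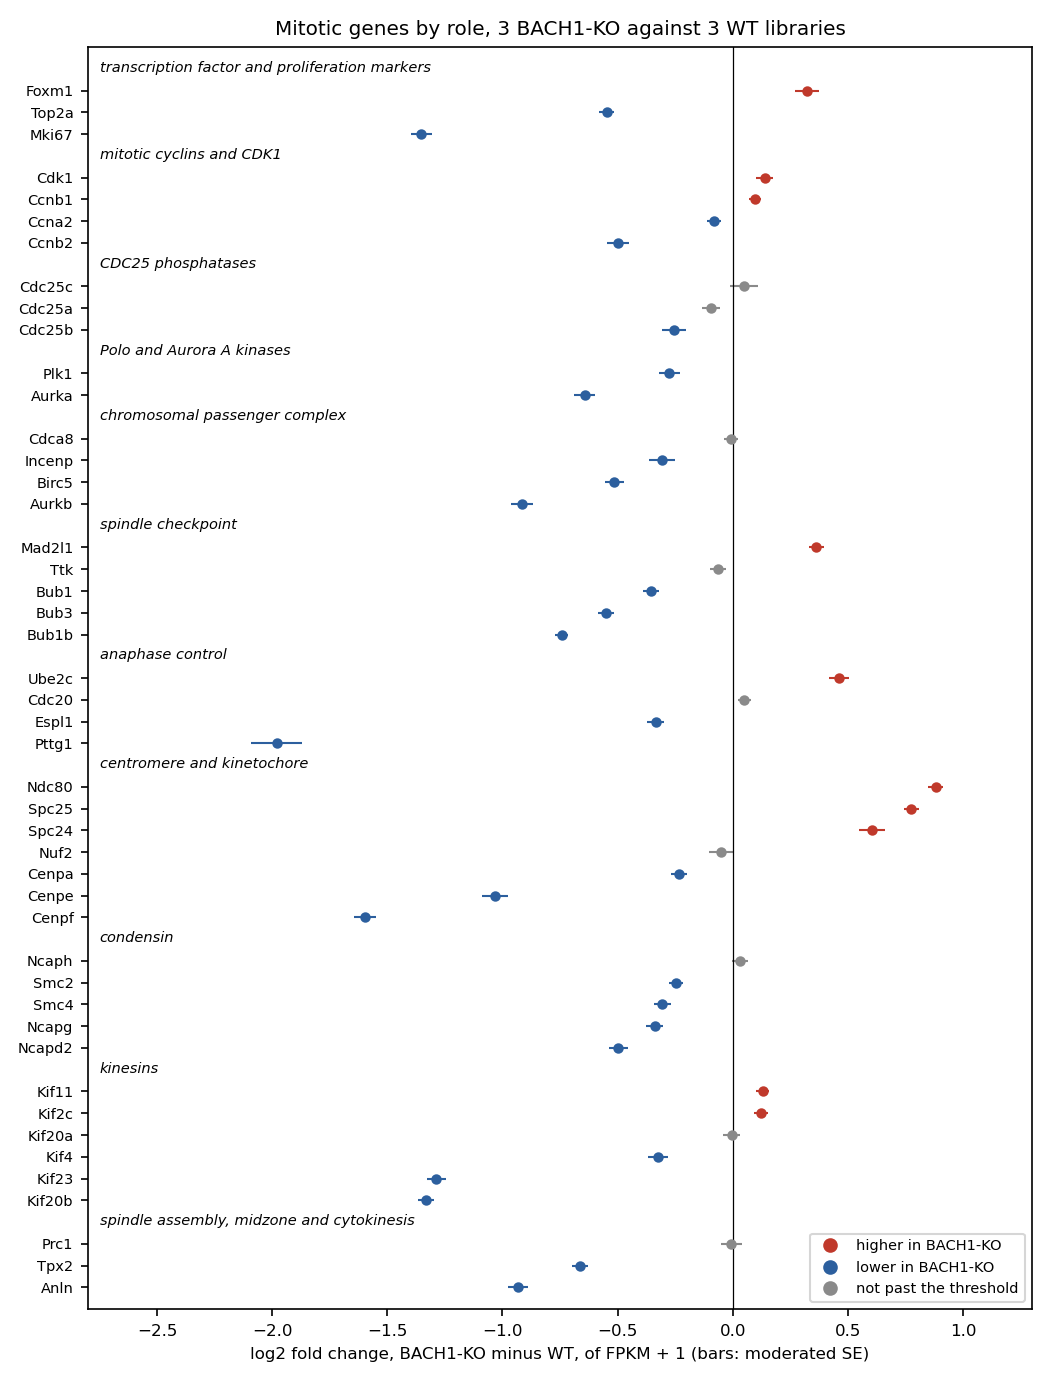
Log2 fold change of FPKM + 1, BACH1-KO minus WT, for each of the 46 mitotic genes by role, with bars for limma's moderated SE (3 libraries per genotype). The changes run from -1.98 for Pttg1 to 0.88 for Ndc80, and most roles hold genes on both sides of 0 or at it.

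All 46 genes were well expressed. By mean FPKM over the 6 libraries they ranged from the 65.2nd percentile of listed genes, for Cenpf, to the 98.3rd, for Birc5. Group means ran in BACH1-KO cells between 4.64 FPKM for Cenpf and 343 FPKM for Ube2c, with a median of 60.4 FPKM, and in WT cells between 12.5 FPKM for Foxm1 and 374 FPKM for Birc5, with a median of 72.5 FPKM. Together they made up 0.449 to 0.456% of the summed FPKM of a BACH1-KO library, against 0.504 to 0.511% of a WT library. Libraries of one genotype were close. The median coefficient of variation of the mitotic genes was 2.33% in BACH1-KO and 3.28% in WT libraries, where genes averaging 10 FPKM or more had 3.18% in BACH1-KO and 4.30% in WT libraries. Pttg1 was the most variable of the 46, at 13.2% in both genotypes.

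The transcription factor and the proliferation markers differed in direction. Foxm1, which drives transcription of late cell cycle genes, had 15.9, 15.6 and 16.2 FPKM in BACH1-KO libraries, against 11.8, 12.3 and 13.4 FPKM in WT libraries. It rose in all 3 (log2 fold change 0.32, SE 0.05, adjusted p = 6.69e-04, limma). Mki67, which encodes the Ki-67 coat protein of mitotic chromosomes and is used as a marker of proliferation, had 8.43, 8.75 and 8.85 FPKM in BACH1-KO libraries, against 24.2, 24.2 and 22.7 FPKM in WT libraries. It fell, at a WT level 2.73 times that of BACH1-KO cells (log2 fold change -1.35, SE 0.05, adjusted p = 1.17e-07). Top2a, the topoisomerase that untangles sister chromatids, had 173, 170 and 174 FPKM in BACH1-KO libraries, against 242, 258 and 256 FPKM in WT libraries (log2 fold change -0.55, adjusted p = 1.84e-06). These 2 markers fell while the transcript of a factor known to activate such genes rose. Foxm1 lies on chromosome 6, where the tested genes as a whole had a median log2 fold change of 0.31 and 59.3% were higher. With the median of its chromosome subtracted in each library, its log2 fold change was 0.02 (adjusted p = 0.678, limma).

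CDK1 and its cyclins moved little, apart from Ccnb2. Cdk1, the kinase that triggers mitosis, had 125, 127 and 130 FPKM in BACH1-KO libraries, against 111, 115 and 121 FPKM in WT libraries. Ccnb1, its main mitotic cyclin, had 256, 255 and 256 FPKM in BACH1-KO libraries, against 237, 241 and 239 FPKM in WT libraries. Both rose by small amounts without overlap between genotypes, with log2 fold changes of 0.14 for Cdk1 (adjusted p = 0.00901) and 0.10 for Ccnb1 (adjusted p = 0.00843, limma). The call of Ccnb1 was lost with median-of-ratios scaling of the libraries (log2 fold change 0.05, adjusted p = 0.091). Ccnb2, a B-type cyclin found at the Golgi, had 121, 125 and 131 FPKM in BACH1-KO libraries, against 168, 181 and 185 FPKM in WT libraries. It fell with a log2 fold change of -0.50 (adjusted p = 2.27e-05). Ccna2, the cyclin A of S and G2 phase, had 101, 107 and 105 FPKM in BACH1-KO libraries, against 108, 110 and 111 FPKM in WT libraries, a log2 fold change of -0.08 that barely passed (adjusted p = 0.0467). That call was lost without BACH1-KO replicate 1 or 3 or WT replicate 2 or 3 (log2 fold changes of -0.08 to -0.06), and with quantile normalization its log2 fold change was 0.07. Processed pseudogenes of Ccnb1 and Ccnb2 are annotated, and how reads shared with them were assigned is not given in the sources used here.

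The CDC25 phosphatases remove the inhibitory phosphates from CDKs. Cdc25b had 10.8, 10.8 and 10.7 FPKM in BACH1-KO libraries, against 14.0, 12.7 and 12.5 FPKM in WT libraries, and it fell (log2 fold change -0.25, adjusted p = 0.00252, limma). Cdc25a had mean levels of 25.1 FPKM in BACH1-KO cells and 26.9 FPKM in WT cells (log2 fold change -0.09, adjusted p = 0.0546). Cdc25c had mean levels of 15.8 FPKM in BACH1-KO cells and 15.2 FPKM in WT cells, and its libraries overlapped (log2 fold change 0.05, adjusted p = 0.477). The Polo and Aurora A kinases both fell. Plk1, which acts at centrosomes, kinetochores and the midzone, had 57.7, 59.9 and 63.0 FPKM in BACH1-KO libraries, against 72.2, 70.7 and 76.6 FPKM in WT libraries (log2 fold change -0.28, adjusted p = 6.27e-04). Aurka, the centrosomal Aurora kinase, had 70.3, 74.0 and 75.03 FPKM in BACH1-KO libraries, against 111, 121 and 113 FPKM in WT libraries. It fell with a log2 fold change of -0.64 (adjusted p = 3.64e-06). Tpx2, which activates Aurora A on spindle microtubules, also fell, with mean levels of 70.9 FPKM in BACH1-KO cells and 113 FPKM in WT cells (log2 fold change -0.66, adjusted p = 8.50e-07).

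In the chromosomal passenger complex, which corrects kinetochore attachments and later directs cytokinesis, 3 of 4 subunits fell. Aurkb, its kinase, had 34.8, 36.2 and 38.1 FPKM in BACH1-KO libraries, against 67.5, 67.5 and 73.5 FPKM in WT libraries. The WT level was 1.91 times that of BACH1-KO cells (log2 fold change -0.92, SE 0.05, adjusted p = 9.28e-07, limma). Birc5, which encodes survivin, had 257, 262 and 264 FPKM in BACH1-KO libraries, against 355, 370 and 396 FPKM in WT libraries, and it fell (log2 fold change -0.51, adjusted p = 1.00e-05). Incenp, the scaffold that activates Aurora B, had mean levels of 29.7 FPKM in BACH1-KO cells and 37.0 FPKM in WT cells (log2 fold change -0.31, adjusted p = 0.00123). The borealin gene Cdca8 had 100.3, 98.2 and 97.99 FPKM in BACH1-KO libraries, against 99.7, 96.9 and 101 FPKM in WT libraries, and its libraries overlapped (log2 fold change -0.01, adjusted p = 0.855). Cdca8 shares exon bases with the opposite-strand gene 9930104L06Rik, whose log2 fold change was 0.75, and whether counting used strand is not given in the sources used here. The ratio of Aurkb to Cdca8 within a library was 0.347, 0.368 and 0.389 in BACH1-KO libraries, against 0.676, 0.697 and 0.726 in WT libraries.

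The spindle checkpoint genes split. Bub1b, which encodes the checkpoint inhibitor BUBR1, had 60.6, 61.9 and 61.8 FPKM in BACH1-KO libraries, against 103, 104 and 104 FPKM in WT libraries (log2 fold change -0.74, SE 0.03, adjusted p = 1.91e-07, limma). Bub3, its partner, had 80.9, 84.1 and 85.9 FPKM in BACH1-KO libraries, against 120.1, 126 and 122 FPKM in WT libraries (log2 fold change -0.55, adjusted p = 2.59e-06). Bub1, the kinase that recruits them to kinetochores, had mean levels of 60.6 FPKM in BACH1-KO cells and 77.8 FPKM in WT cells (log2 fold change -0.35, adjusted p = 2.65e-05). All 3 BUB genes fell without overlap. Mad2l1, which encodes MAD2, had 92.1, 91.0 and 94.7 FPKM in BACH1-KO libraries, against 70.2, 73.3 and 71.8 FPKM in WT libraries, and it rose (log2 fold change 0.36, adjusted p = 1.68e-05). Like Foxm1 it lies on chromosome 6, and with chromosome medians subtracted its log2 fold change was 0.06 (adjusted p = 0.0884, limma). Ttk, which encodes the MPS1 kinase at the top of the checkpoint, had mean levels of 57.4 FPKM in BACH1-KO cells and 60.0 FPKM in WT cells, with overlapping libraries (log2 fold change -0.06, adjusted p = 0.139). The ratio of Bub1b to Mad2l1 was 0.659, 0.680 and 0.652 in BACH1-KO libraries, against 1.46, 1.42 and 1.45 in WT libraries.

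Among the genes of anaphase control, Pttg1 changed most of all 46. It encodes securin, the inhibitor of separase that the APC/C destroys at anaphase. It had 45.9, 51.7 and 39.6 FPKM in BACH1-KO libraries, against 211, 170.0 and 168 FPKM in WT libraries. Every BACH1-KO value lay far below every WT value, and the WT mean of 183 ± 24.3 FPKM was 4.01 times the BACH1-KO mean of 45.7 ± 6.02 FPKM (SD, n = 3 each). The log2 fold change was -1.98 (SE 0.11, adjusted p = 1.27e-06, limma), and it stayed between -2.08 and -1.86 under every alternative computed. Espl1, which encodes separase, had mean levels of 20.03 FPKM in BACH1-KO cells and 25.5 FPKM in WT cells (log2 fold change -0.33, adjusted p = 5.99e-05). The call of Espl1 was lost with the coding-length trend removed (log2 fold change -0.02, adjusted p = 0.728). The ratio of Pttg1 to Espl1 was 2.27, 2.61 and 1.97 in BACH1-KO libraries, against 8.16, 6.61 and 6.75 in WT libraries. Ube2c, which encodes the ubiquitin-conjugating enzyme of the APC/C, had 340.1, 344 and 344 FPKM in BACH1-KO libraries, against 234, 248 and 265 FPKM in WT libraries, and it rose (log2 fold change 0.46, adjusted p = 2.50e-05). Its exons share 592 bases with Tnnc2 on the opposite strand, which averaged under 1 FPKM and was not tested. Cdc20, the APC/C activator that the checkpoint restrains, had 142, 138 and 135 FPKM in BACH1-KO libraries, against 133.5, 132.5 and 134.5 FPKM in WT libraries. Those libraries did not overlap, but the log2 fold change of 0.05 did not pass (adjusted p = 0.153). Cdc20 passed as higher with FPKM rescaled to TPM (log2 fold change 0.11, adjusted p = 0.0100) and with quantile normalization (log2 fold change 0.21, adjusted p = 1.79e-04).

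**Figure D3:**
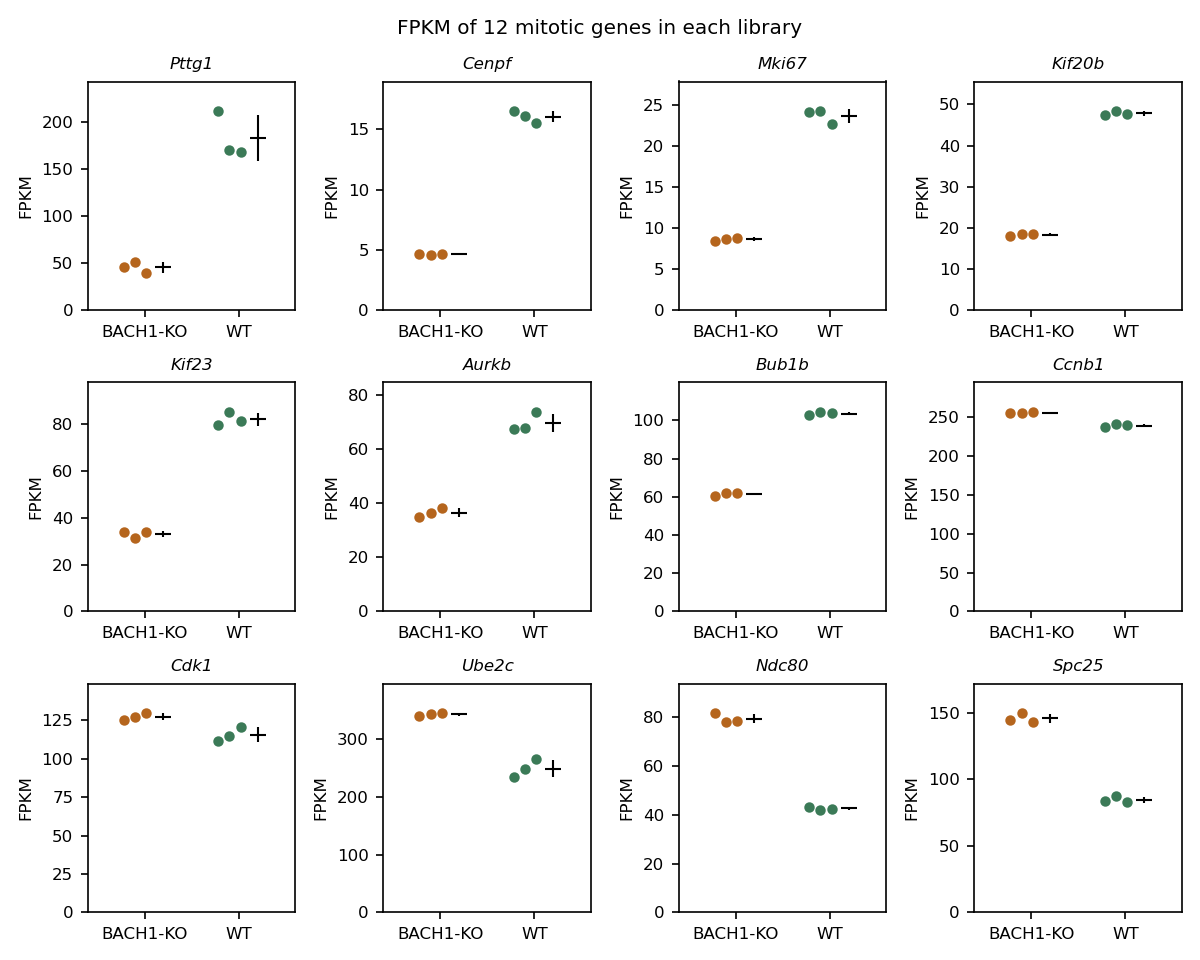
FPKM of 12 mitotic genes in each of the 3 BACH1-KO (left, orange) and 3 WT libraries (right, green), with the mean and SD beside each group and axes that start at 0. Pttg1, Cenpf, Mki67, Kif20b and Kif23 are far apart between genotypes, Ccnb1 and Cdk1 differ by little, and Ube2c, Ndc80 and Spc25 are higher in BACH1-KO libraries.

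At the kinetochore, 3 of the 4 genes of one complex rose, while Cenpe, Cenpf and Cenpa fell. The NDC80 complex holds microtubules and has the subunits NDC80, NUF2, SPC24 and SPC25. Ndc80 had 81.7, 78.2 and 78.7 FPKM in BACH1-KO libraries, against 43.4, 42.2 and 42.4 FPKM in WT libraries (log2 fold change 0.88, SE 0.03, adjusted p = 1.74e-07, limma). Spc25 had 144, 149 and 143 FPKM in BACH1-KO libraries, against 83.6, 87.3 and 83.2 FPKM in WT libraries (log2 fold change 0.78, adjusted p = 3.26e-07). Spc24 had 65.3, 58.9 and 59.3 FPKM in BACH1-KO libraries, against 38.0, 42.5 and 39.0 FPKM in WT libraries (log2 fold change 0.61, adjusted p = 2.03e-05). These were the 3 largest rises among the 46 genes. Nuf2, which pairs with NDC80 in the complex, did not pass, with 29.4, 28.5 and 28.8 FPKM in BACH1-KO libraries, against 32.5, 29.2 and 28.3 FPKM in WT libraries (log2 fold change -0.05, adjusted p = 0.426). The ratio of Ndc80 to Nuf2 was 2.78, 2.74 and 2.73 in BACH1-KO libraries, against 1.34, 1.44 and 1.5 in WT libraries.

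Of the other kinetochore and centromere genes among the 46, the remaining 3 fell. Cenpf, a large protein of the outer kinetochore that peaks in G2, had 4.637, 4.595 and 4.678 FPKM in BACH1-KO libraries, against 16.5, 16.1 and 15.6 FPKM in WT libraries. The WT level was 3.46 times that of BACH1-KO cells (log2 fold change -1.60, SE 0.05, adjusted p = 6.86e-08, limma). Cenpe, the kinesin that moves chromosomes to the spindle equator, had 6.70, 6.53 and 6.47 FPKM in BACH1-KO libraries, against 15.5, 14.3 and 13.6 FPKM in WT libraries (log2 fold change -1.03, adjusted p = 1.17e-06). Both stood clear of the spread within a genotype. Cenpa, the histone variant that marks centromeres, had mean levels of 83.2 FPKM in BACH1-KO cells and 98.1 FPKM in WT cells, and it fell (log2 fold change -0.23, adjusted p = 3.25e-04).

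Condensin I compacts mitotic chromosomes, and 4 of its 5 subunit genes fell by moderate amounts. Ncapd2, a HEAT-repeat subunit, had 41.4, 43.7 and 44.2 FPKM in BACH1-KO libraries, against 59.4, 60.8 and 63.2 FPKM in WT libraries (log2 fold change -0.50, adjusted p = 9.33e-06, limma). It lies on chromosome 6, and with chromosome medians subtracted its log2 fold change was -0.79. Ncapg, the other HEAT-repeat subunit, had mean levels of 47.1 FPKM in BACH1-KO cells and 59.8 FPKM in WT cells (log2 fold change -0.34, adjusted p = 7.12e-05). The ATPase core genes Smc2 and Smc4 fell together, with log2 fold changes of -0.25 for Smc2 (adjusted p = 1.37e-04) and -0.31 for Smc4 (adjusted p = 1.04e-04). The call of Smc2 was lost with the coding-length trend removed (log2 fold change -0.07, adjusted p = 0.0959). Their mean levels were 51.4 FPKM for Smc2 and 78.4 FPKM for Smc4 in BACH1-KO cells, against 61.2 FPKM for Smc2 and 97.3 FPKM for Smc4 in WT cells. Ncaph, the kleisin subunit that closes the ring, had mean levels of 41.1 FPKM in BACH1-KO cells and 40.2 FPKM in WT cells, with overlapping libraries (log2 fold change 0.03, adjusted p = 0.448). The ratio of Ncapd2 to Ncaph was 1.03, 1.08 and 1.04 in BACH1-KO libraries, against 1.51, 1.5 and 1.55 in WT libraries.

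The mitotic kinesins fell into 2 that rose slightly, 3 that fell and 1 that did not pass. Kif23, which encodes MKLP1 of the centralspindlin complex, had 33.9, 31.3 and 33.8 FPKM in BACH1-KO libraries, against 79.7, 84.9 and 81.2 FPKM in WT libraries (log2 fold change -1.29, SE 0.04, adjusted p = 1.06e-07, limma). Kif20b, a kinesin of the midzone and of abscission, had 18.0, 18.6 and 18.6 FPKM in BACH1-KO libraries, against 47.3, 48.3 and 47.8 FPKM in WT libraries (log2 fold change -1.33, SE 0.03, adjusted p = 3.48e-08). Its relative Kif20a, which encodes MKLP2 and brings Aurora B to the midzone, had 80.2, 83.7 and 81.6 FPKM in BACH1-KO libraries, against 79.1, 83.0 and 84.3 FPKM in WT libraries. Kif20a overlapped and did not pass (log2 fold change -0.0046, adjusted p = 0.913), and its exons share 1271 bases with Cdc23 on the opposite strand. Kif11, the motor that pushes spindle poles apart, had mean levels of 62.2 FPKM in BACH1-KO cells and 56.8 FPKM in WT cells, and it rose (log2 fold change 0.13, adjusted p = 0.00329). Kif2c, which encodes the microtubule-depolymerising kinesin MCAK, also rose, with mean levels of 54.7 FPKM in BACH1-KO cells and 50.2 FPKM in WT cells (log2 fold change 0.12, adjusted p = 0.00635). Kif4, a chromosome-bound kinesin that works with PRC1, had mean levels of 15.1 FPKM in BACH1-KO cells and 19.1 FPKM in WT cells (log2 fold change -0.32, adjusted p = 1.86e-04). Its value is uncertain, since a Kif4 pseudogene is listed separately and 832 exon bases are shared with Pdzd11 on the opposite strand, whose log2 fold change was 1.24.

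Of the cytokinesis genes, Anln, which encodes the actin-binding scaffold anillin of the cleavage furrow, had 39.2, 39.98 and 40.6 FPKM in BACH1-KO libraries, against 72.6, 79.4 and 79.3 FPKM in WT libraries. It fell (log2 fold change -0.93, SE 0.04, adjusted p = 4.61e-07, limma). Prc1, which bundles the antiparallel microtubules of the midzone, had 86.4, 86.6 and 90.8 FPKM in BACH1-KO libraries, against 83.2, 89.9 and 91.9 FPKM in WT libraries. It overlapped (log2 fold change -0.01, adjusted p = 0.918), and 911 of its exon bases are shared with the opposite-strand gene Rccd1, whose log2 fold change was 1.19. The ratio of Kif23 to Prc1 was 0.392, 0.362 and 0.372 in BACH1-KO libraries, against 0.958, 0.944 and 0.884 in WT libraries. In all, 9 of the 46 genes share exon bases with an opposite-strand gene of the table (Ccna2, Cdc25b, Cdca8, Cdc20, Ube2c, Ncapg, Kif20a, Kif4 and Prc1), and reads of the partners cannot be told apart unless counting used strand.

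**Figure D4:**
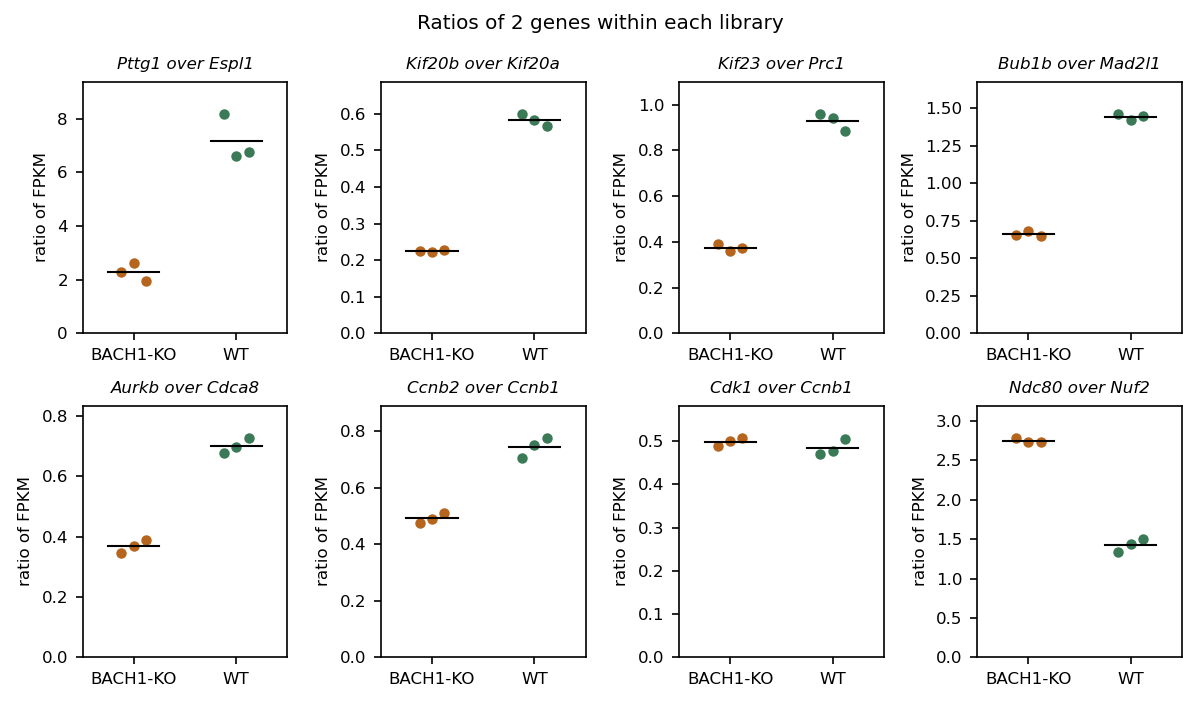
Ratio of the FPKM of 2 genes within each library, for 8 pairs of genes that work together, with lines at group means, BACH1-KO left and WT right. A ratio within a library does not change when all genes of that library are scaled by the same factor. Quantile normalization is not such a scaling. The genotypes are apart in 7 pairs and overlap for Cdk1 over Ccnb1.

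These pairs were chosen with the genes' changes known, so they illustrate those changes and add no support to them. Cdk1 over Ccnb1 was 0.489, 0.499 and 0.506 in BACH1-KO libraries, against 0.469, 0.476 and 0.505 in WT libraries, so the genotypes overlapped. Ccnb2 over Ccnb1 was 0.474, 0.489 and 0.512 in BACH1-KO libraries, against 0.707, 0.751 and 0.775 in WT libraries. Kif20b over Kif20a was 0.224, 0.222 and 0.228 in BACH1-KO libraries, against 0.598, 0.582 and 0.567 in WT libraries. The ratio of Smc2 to Smc4, both of which fell, averaged 0.655 in BACH1-KO and 0.629 in WT libraries, 1.04 times higher in BACH1-KO. That of Spc25 to Spc24, both of which rose, averaged 2.39 in BACH1-KO and 2.13 in WT libraries.

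The genes with long coding sequences fell. All 7 mitotic genes with a coding sequence over 4000 bases were lower in BACH1-KO cells: Mki67, Cenpf, Cenpe, Kif20b, Espl1, Top2a and Ncapd2. Of all tested genes with over 4000 and up to 6000 coding bases, 58.1% were lower. Of the 10 mitotic genes with at most 1000 bases, 5 rose and 4 fell, where 43.4% of all tested genes of that length rose and 33.2% fell. The 4 members over 6000 bases had a median log2 fold change of -1.19, where all 249 tested genes of that length had -0.38 and 67.9% of them were lower. The 10 members of at most 1000 bases had a median of 0.07, where all 3883 such genes had 0.08. Across the 46 genes the log2 fold change and log2 coding length had Pearson's r of -0.41 and Spearman's rho of -0.43, and across 11380 genes -0.14 and -0.16. These correlations are across genes, which share the 6 libraries and are not independent. With the trend against coding length removed from each library, 11 mitotic genes were higher and 26 lower, with a median of -0.12. In that fit the calls of Cdk1 (log2 fold change 0.08, adjusted p = 0.0721), Espl1 and Smc2 were lost. Genes that kept their call with a value over 1.5 times smaller had log2 fold changes of -0.67 for Cenpe, -0.31 for Top2a, -0.28 for Ncapd2, -0.19 for Bub1, -0.19 for Ncapg, -0.18 for Incenp, -0.14 for Kif4 and -0.11 for Smc4. Those of Kif11 (0.29) and Kif2c (0.19) were over 1.5 times larger. Mki67, Cenpf and Kif20b kept their calls under every alternative computed. Their smallest falls among those alternatives were -0.93 for Mki67, -1.13 for Cenpf and -1.06 for Kif20b. The reported values were -1.35 for Mki67, -1.60 for Cenpf and -1.33 for Kif20b. Pttg1, at 564 coding bases, was short and yet had the lowest log2 fold change of the 46.

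**Figure D5:**
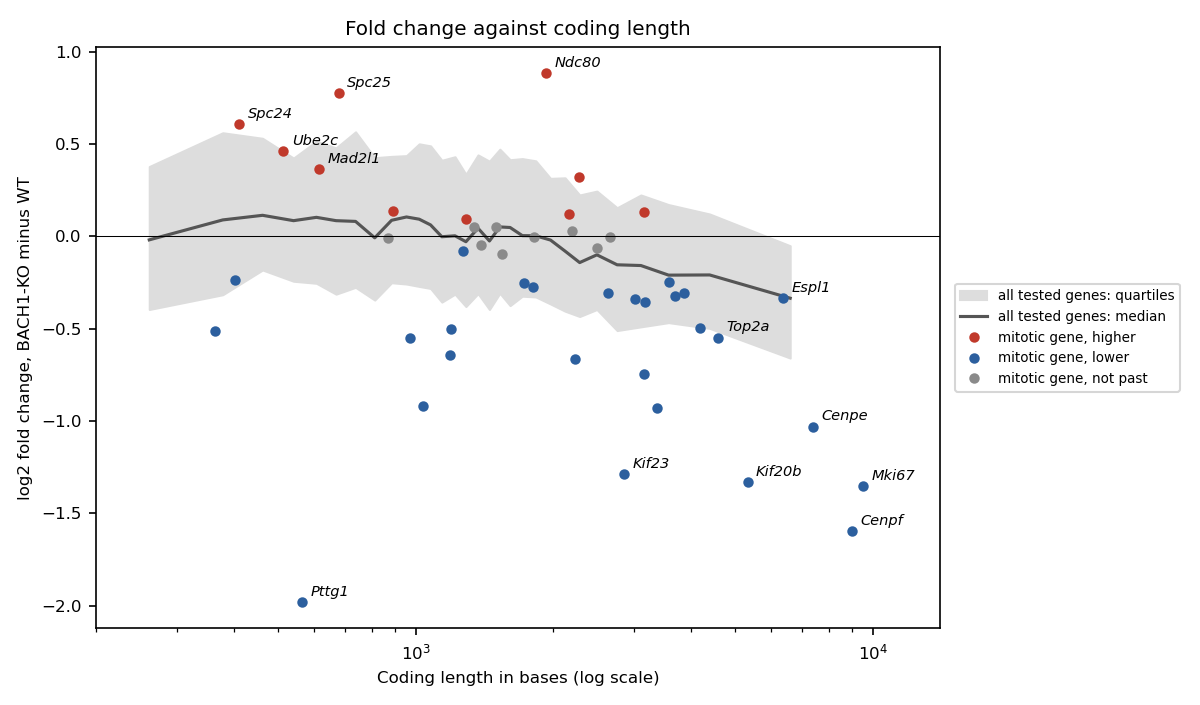
Log2 fold change, BACH1-KO minus WT, against coding length in bases (log axis) for the 46 mitotic genes (red higher, blue lower, grey not past the threshold), over the running median and quartiles of all tested genes with a coding length (line and band). Kif20b lies below the band, Espl1 lies on the median line, and Pttg1 lies far below it among short genes. The band ends at 6594 bases, and Cenpf, Mki67 and Cenpe lie to the right of its end, lower than its last values.

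By chromosome, the 3 mitotic genes on chromosome 6 were Foxm1 and Mad2l1, which rose, and Ncapd2, which fell. All 4 on chromosome 11 fell, Aurkb, Birc5, Pttg1 and Top2a, where the tested genes of that chromosome had a median log2 fold change of -0.13 and 48.1% were lower. The part of the chromosome in these results was not tested beyond subtracting its median.

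Related genes outside the 46 were counted in 7 lists of mitotic partners, which held 139 tested genes. Among them 54 rose and 61 fell, 24 missed the threshold, and the median log2 fold change was -0.03. These shares, 38.9% higher and 43.9% lower, are near the 37.3% and 39.7% of all genes tested. Further kinetochore and centromere genes numbered 35, of which 18 rose and 6 fell, with a median of 0.18. Zwint, which links the kinetochore to the RZZ complex, had mean levels of 45.4 FPKM in BACH1-KO cells and 25.6 FPKM in WT cells, whereas Nek2, a centrosomal kinase, had 31.3 FPKM in BACH1-KO cells and 50.6 FPKM in WT cells. Of 15 tested genes of cohesin and its regulators, which hold sister chromatids together until separase acts, 2 rose and 13 fell, with a median of -0.40. The 12 with a known coding length had a median of 3675 coding bases. With the coding-length trend removed, 2 of these 12 were higher and 8 lower, with a median log2 fold change of -0.25. In that fit 4363 of 11375 protein-coding genes were higher and 4350 lower. Pds5a, a cohesin regulator, fell to 19.8 FPKM in BACH1-KO cells, against 49.1 FPKM in WT cells, while the loader subunit Mau2 rose to 13.6 FPKM in BACH1-KO cells, against 9.62 FPKM in WT cells. Of 17 APC/C subunits and partners, the machinery that UBE2C and CDC20 serve, 4 rose and 10 fell, with a median of -0.22. The subunit genes Anapc16 and Anapc5 went opposite ways, Anapc16 with 49.1 FPKM in BACH1-KO cells and 18.5 FPKM in WT cells, and Anapc5 with 100.3 FPKM in BACH1-KO cells and 155 FPKM in WT cells.

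The shares of the next lists stand beside the 37.3% of all genes tested that rose and the 39.7% that fell. Of 9 genes for condensin II and other mitotic kinesins 2 rose (22.2%) and 7 fell (77.8%), with a median log2 fold change of -0.28. With the coding-length trend removed, 2 were higher and 4 lower, with a median of -0.06. Kifc1, a minus-end motor, had 80.6 FPKM in BACH1-KO cells and 48.5 FPKM in WT cells, and Kif22, a chromosome-arm motor, had 70.0 FPKM in BACH1-KO cells and 99.4 FPKM in WT cells. Of 34 centrosome, spindle and cytokinesis genes 13 rose (38.2%) and 16 fell (47.1%). Without the coding-length trend, 15 of them were higher and 12 lower. Haus1 of the augmin complex had 93.8 FPKM in BACH1-KO cells and 45.8 FPKM in WT cells. Cep192 of the centrosome had 14.2 FPKM in BACH1-KO cells and 26.5 FPKM in WT cells. Of 10 CDK1 regulators 5 rose (50%) and 2 fell (20%). Mastl, the Greatwall kinase, had 18.7 FPKM in BACH1-KO cells and 12.6 FPKM in WT cells, and Cks1b, a CDK-binding protein, had 296.5 FPKM in BACH1-KO cells and 369 FPKM in WT cells. Of the 19 genes for MuvB subunits, B-MYB and E2F factors and their pocket proteins 10 rose (52.6%) and 7 fell (36.8%). Rb1, which encodes the retinoblastoma protein, rose to 8.38 FPKM in BACH1-KO cells, against 4.39 FPKM in WT cells, and Rbl1, which encodes p107, fell to 7.54 FPKM in BACH1-KO cells, against 16.1 FPKM in WT cells. Mybl2, the gene for B-MYB, chosen after its values were seen for its role beside FOXM1, had 114 FPKM in BACH1-KO cells and 99.8 FPKM in WT cells (log2 fold change 0.19, adjusted p = 8.21e-04, limma).

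Genes of earlier cell cycle stages were counted for comparison. Of 49 DNA replication genes 19 rose and 25 fell, with a median log2 fold change of -0.11. Orc5, of the origin recognition complex, had 78.6 FPKM in BACH1-KO cells and 50.5 FPKM in WT cells, and Rfc1, the large subunit of the clamp loader, had 31.4 FPKM in BACH1-KO cells and 75.4 FPKM in WT cells. Of 15 G1 cyclins, CDKs and inhibitors 5 rose and 6 fell, with a median of -0.01, where Ccnd2 had 5.05 FPKM in BACH1-KO cells and 1.56 FPKM in WT cells, and Ccnd3 had 70.7 FPKM in BACH1-KO cells and 144 FPKM in WT cells. The replication list had 38.8% higher and 51.0% lower, and the G1 list 33.3% higher and 40% lower, where all genes tested had 37.3% and 39.7%, so the G1 shares are near the background. The differences in direction between these lists and the 46 mitotic genes were not tested.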

How the data were processed

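Gene expression was measured by RNA sequencing of total RNA extracted with Trizol and prepared with an Illumina TruSeq kit, per the labels' protocols, in 3 BACH1-KO and 3 WT libraries of E14Tg2A cells. The deposited table holds FPKM per gene symbol, from Cufflinks and the mouse build mm10, per the submitters' processing notes. The sources used here do not give the aligner, the annotation, the Cufflinks version or the strand setting. The table's columns name the genotype but could not be tied to sample titles, so their numbers only name libraries. Read depth was unknown: relative depth was estimated from the steps between the lowest FPKM values, and no counting interval could be given. The 23 rows that have a number in place of a symbol (0.0904 to 0.106% of summed FPKM) were left out.

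Genes that averaged 1 FPKM or more were compared as log2(FPKM + 1), computed here from the deposited FPKM, with limma 3.58.1 in R 4.3.3 (empirical Bayes with a mean-variance trend). P-values were two-sided and were adjusted by Benjamini-Hochberg over all 12187 genes tested, with the threshold at 0.05. Fold changes are differences of log2(FPKM + 1), BACH1-KO minus WT, a scale on which changes of low genes are understated, and all 46 mitotic genes passed the filter. The members and lists were chosen with earlier results of these data known, so list counts are descriptions without a test. Every member was named, together with Bach1 and, from each list of mitotic partners, earlier cell cycle genes, hepatocyte transcripts and feeder markers, the gene called higher and the gene called lower with the smallest adjusted p, where there was one. Other genes, among them Pou5f1 and the markers listed at 0, and the order of emphasis, were chosen after values were seen. Gene models came from GENCODE M21 (GRCm38, 17558 symbols matched) and promoter windows from RefSeq. Alternatives changed the pseudocount, the filter, the scaling, the variance prior, the fold tested against and the libraries used.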

Additional observations from a re-analysis of the deposited data

How the results depend on the processing

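No paired analysis was possible because the columns carry no replicate numbers that the labels tie to samples, and title endings shared between genotypes could not be tied to columns. Of the 46 mitotic genes the members called higher numbered 10 and the members called lower 27. Tested against a fold change of 1.5, the counts were 2 and 9. They were 15 and 26 with quantile normalization, 12 and 26 with FPKM rescaled to TPM, and 9 and 29 with median-of-ratios scaling. The median log2 fold change of the members was -0.27 as reported, -0.25 with a pseudocount of 5, -0.21 with FPKM rescaled to TPM, -0.31 with median-of-ratios scaling and -0.17 with quantile normalization. It was -0.12 with the coding-length trend removed, an alternative chosen after seeing the data, as was the removal of chromosome medians. Leaving out each library in turn, 10 were higher, 26 to 27 were lower, and the median lay between -0.28 and -0.26.

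Direction turned in 8 genes, each with a reported log2 fold change within 0.10 of 0. Rescaled to TPM, Cdca8 had 0.055, Kif20a 0.057, Nuf2 0.011 and Prc1 0.056. With median-of-ratios scaling, Ncaph had -0.0094. With quantile normalization, Ccna2 had 0.074, Cdca8 0.14, Ttk 0.033, Kif20a 0.11 and Prc1 0.13. Without the coding-length trend, Ttk had 0.049, Kif20a 0.12 and Prc1 0.0087. Without chromosome medians, Cdc25a had 0.026, Ttk 0.058 and Kif20a 0.10. Leaving out 1 library turned Kif20a (-0.031 to 0.014), Prc1 (-0.048 to 0.024), Nuf2 (-0.088 to 0.0081) and Cdca8 (-0.023 to 0.0072). The cause of these changes was not tested. Apart from the test against 1.5-fold, the calls lost were those of Ccna2, of Ccnb1 with median-of-ratios scaling (0.05, adjusted p = 0.091, limma), of Cdk1, Espl1 and Smc2 without the length trend, and of Foxm1 and Mad2l1 without chromosome medians. Calls were gained as higher by Cdc20 and Ncaph with TPM and quantile normalization, by Cdca8 (adjusted p = 0.00314, limma) and Prc1 with quantile normalization, by Kif20a with that and with either trend removed, and by Ncaph without the length trend. Calls were gained as lower by Cdc25a in 4 settings and by Ttk with median-of-ratios scaling. With quantile normalization Cdk1 had 0.31, Ccnb1 0.28, Kif11 0.23, Kif2c 0.20, Plk1 -0.17, Smc4 -0.18, Smc2 -0.16 and Cenpa -0.10. With 3 libraries a genotype and unknown depth, small differences such as that of Ccna2 are not firm.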
